A study of Mus musculus with 28 samples.

Results

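The genes described here are 8 transcription factors and targets through which the circadian clock passes its rhythm on to other genes: the activators Dbp, Tef and Hlf, the repressor Nfil3, the REV-ERB receptors Nr1d1 and Nr1d2, the clock factor Npas2 and the cell cycle kinase gene Wee1. They were chosen by symbol, and all 8 were found among the 22116 named genes of the liver table and the 21797 of the kidney table. Messenger RNA came from male C57BL/KsJ db/db mice, whose leptin receptor does not signal, so that they overeat and develop obesity and diabetes. The mice were 8 weeks old at the start of an intervention of 8 weeks. Control mice were reared normally and stayed sedentary, a second group did high-intensity interval training (HIIT), treadmill running in sessions of 60 min, another was injected with semaglutide, a drug that activates the receptor of the gut hormone GLP-1, and the combined group had both. The dose of semaglutide is labelled both 0.05 mg/kg and 30 nmol/kg, which are different amounts, and which was used is not settled. All groups carry the db/db genotype, and no lean group was analysed here. There were 12 liver libraries, with 3 a group, and 16 kidney libraries, with 4 a group.

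In the molecular clock, CLOCK or its relative NPAS2 pairs with BMAL1 and switches on genes that carry an E-box, among them the Per and Cry genes, the REV-ERB genes and Dbp. DBP, TEF and HLF (the PAR bZIP factors) bind a shared element, the D-box, and activate genes of metabolism and detoxification in liver and kidney, while NFIL3 binds the same element and represses. REV-ERBs recruit corepressors to genes such as Bmal1, Npas2 and Nfil3, so Nr1d1 and the genes it represses normally peak at different times of day. The sources used here do not give the hour at which tissues were collected, and each library is a single time point.

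The stretch of DNA just before the start of each gene was read to see which clock elements it holds. RefSeq's table (build GRCm38.p6, another build than the GRCm39 named in the submitters' processing notes) gave the 250 bases before the start of 7 of the 8 genes, with 8 windows in all, since Tef has 2. Both Tef windows hold the E-box CACGTG, which is in 6.02% of 32851 windows of this length, and the Nr1d1 window holds the E-box variant CACGTT, which is in 3.85%. They are shown because Tef and Nr1d1 are the members of this group whose windows held any searched motif. Each sequence is on the gene's strand, 5′ to 3′, with the motif in capitals; for Nr1d1 the capitals are the reverse complement of CACGTT. The first Tef stretch is the 30 bases around the E-box, the other sequences are whole windows.
Tef, first start, chr15:81802534-81802563, plus strand: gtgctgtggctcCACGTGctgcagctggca
Tef, second start, chr15:81811164-81811413, plus strand: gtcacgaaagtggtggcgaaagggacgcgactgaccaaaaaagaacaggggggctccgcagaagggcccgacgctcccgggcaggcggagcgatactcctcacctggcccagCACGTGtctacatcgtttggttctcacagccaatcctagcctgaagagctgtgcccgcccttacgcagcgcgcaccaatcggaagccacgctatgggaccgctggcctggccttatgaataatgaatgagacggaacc
Nr1d1, chr11:98775378-98775627, minus strand: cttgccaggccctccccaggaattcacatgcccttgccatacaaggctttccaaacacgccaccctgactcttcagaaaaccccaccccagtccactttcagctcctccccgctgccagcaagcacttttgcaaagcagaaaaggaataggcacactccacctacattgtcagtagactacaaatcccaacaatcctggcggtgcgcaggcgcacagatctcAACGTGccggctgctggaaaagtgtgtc
The Tef E-boxes lie 127 to 122 bases before the first start and 138 to 133 bases before the second. The Nr1d1 motif lies 28 to 23 bases before its start. Searched on both strands, the D-boxes TTATGTAA and TTACGTAA (0.82% and 0.11% of all windows) and the RORE, the element bound by REV-ERBs (0.33%), were in none of the 8 windows. A match describes the letters only, and its absence says only that they are not in this window. Of the 250 bases of the Dbp window, 159 lie inside Dbp exons.

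Levels are in FPKM, fragments scaled to the length of the transcript and to the size of the library. The files hold no read counts, so the depth behind each value is unknown and its precision is judged from how far replicate libraries scatter. Changes are differences in log2(FPKM + 1), each followed by ± its standard error, which makes the change of weak transcripts such as Wee1 and Npas2 look smaller than it is. With limma, 10348 liver genes (at least 1 FPKM in 3 or more libraries) and 11551 kidney genes (in 4 or more) were tested, with Benjamini-Hochberg adjusted p-values and a threshold of 0.05. All 5 hepatocyte markers were detected in liver and all 5 proximal tubule markers in kidney. Liver library semaglutide 2 stood apart with 9190 FPKM of skeletal muscle markers, against at most 0.411 elsewhere in liver, and with 1390 FPKM of adipocyte markers, against at most 17.9. Macrophage markers summed to 352 FPKM in liver control 3 and 340 in semaglutide 2, against at most 98.2 in the other liver libraries. In kidney, control 1 held 4800 FPKM of macrophage markers, against at most 263 elsewhere. It also held 1360 FPKM of plasma cell markers and 271 of fibroblast markers, against at most 4.11 and 46. Kidney semaglutide 4 held 434 FPKM of adipocyte markers, against at most 97.4 in the other kidney libraries. Whether each library is a separate animal is not stated in the labels; p-values reflect only how much these samples differ, which may be technical. In such bulk RNA, fewer cells of a type and less RNA per cell cannot be told apart.

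In the liver, the PAR bZIP activators were lowest in sedentary controls and highest with combined treatment. Dbp had 15.5, 14.8 and 7.69 FPKM in the control libraries, 37.5, 15.5 and 22.2 with HIIT, 20.4, 17 and 16.2 with semaglutide and 38.4, 39.8 and 29.6 with both. The combined libraries exceed every control and every semaglutide library, while the HIIT libraries spread across the range of all other groups. Tef, the second activator, had 28.5, 29.1 and 18.6 FPKM in controls, 42.7, 30.8 and 35.2 with HIIT, 39.8, 38.8 and 34.9 with semaglutide and 47.6, 49.4 and 45.8 with both. Every treated Tef library was above every control, and the combined libraries were above all others. Hlf, the third activator, had 9.59, 7.67 and 5.95 FPKM in controls, 9.04, 9.16 and 9.47 with HIIT, 10.8, 8.07 and 11.9 with semaglutide and 13.7, 13.7 and 12.6 with both. Hlf overlapped with controls under either single treatment and not under both together. Control 3, one of the libraries that stand apart, was the lowest of the 12 for all of Dbp, Tef and Hlf. Other gene groups also set the control livers apart. The 4 acute phase genes, which the liver raises in inflammation, summed to 4690, 32200 and 56100 FPKM in controls, to 510 to 3040 with HIIT, 2290 to 5650 with semaglutide and 1510 to 4760 with both. The 5 hepatocyte markers summed to 36000, 23100 and 17900 FPKM in controls, 42300 to 43600 with HIIT, 20500 to 37300 with semaglutide and 39200 to 43300 with both. The 4 red cell markers summed to 189 to 328 FPKM in controls and to at least 447 in every treated liver. All genes of these lists were detected, and their part in the differences from control described here was not tested.

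**Figure D1:**
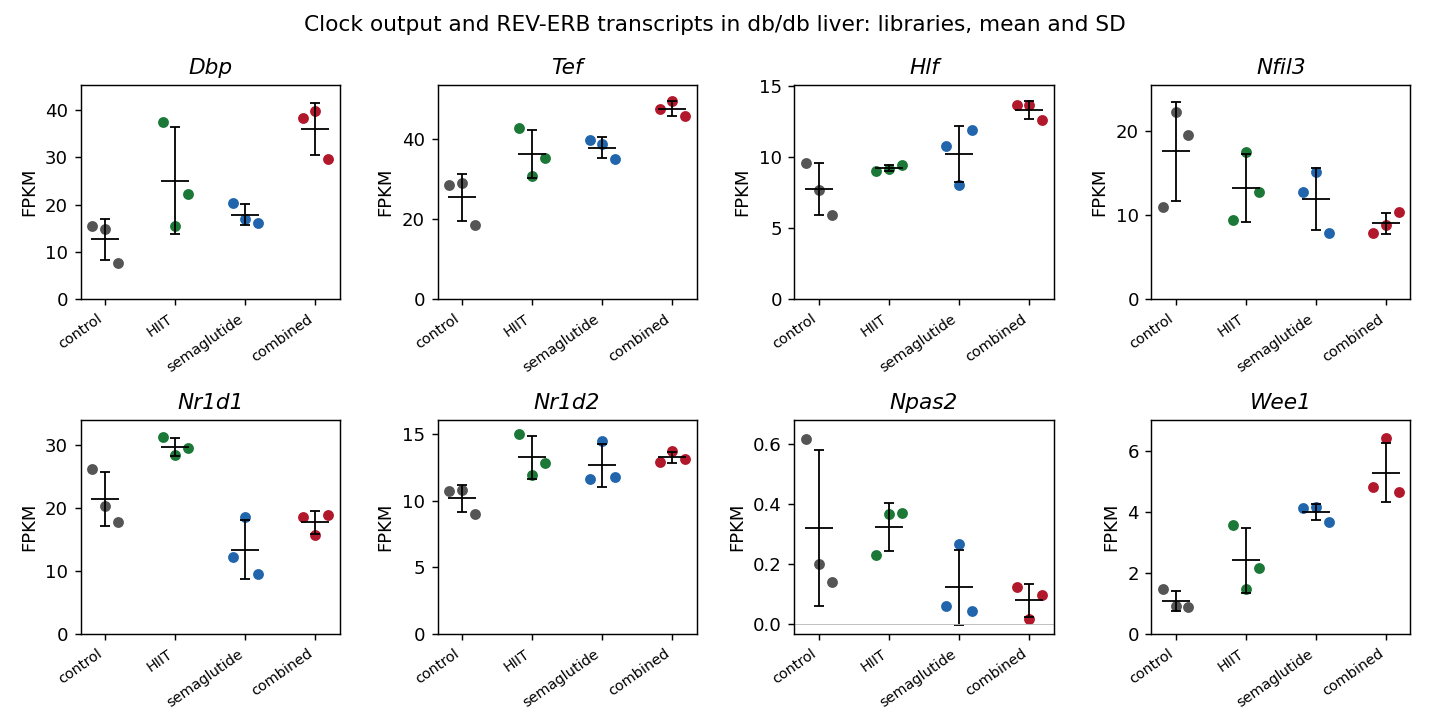
FPKM (vertical axis, from 0) of the 8 transcripts in each liver library, by group (horizontal axis, 3 libraries each); bars are the mean and SD. Dbp, Tef, Hlf and Wee1 were highest with combined treatment, with group means of 35.9, 47.6, 13.3 and 5.28 FPKM, and Nr1d1 was highest with HIIT at 29.6 FPKM.

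Against control, combined treatment gave changes of 1.48 ± 0.31 for Dbp, 0.91 ± 0.17 for Tef and 0.74 ± 0.16 for Hlf, none of which passed in limma over all genes (adjusted p = 0.0921, 0.0677 and 0.103). HIIT alone gave 0.90 ± 0.31, 0.51 ± 0.17 and 0.25 ± 0.16 for these genes in that order (adjusted p = 0.682, 0.676 and 0.761). Semaglutide alone gave 0.52 ± 0.31, 0.58 ± 0.17 and 0.37 ± 0.16 (adjusted p = 0.44, 0.156 and 0.309). These comparisons share the same control libraries. Without control 1, where all of them were at or near the top of the control range, the combined change passed for each, at 1.65 for Dbp (adjusted p = 0.0451), 1.00 for Tef (0.0315) and 0.88 for Hlf (0.0256). Without the libraries that stand apart, control 3 and semaglutide 2, it passed for Tef (0.71, adjusted p = 0.025) and Hlf (0.58, adjusted p = 0.0231). The share of all genes passing in fits with libraries left out is not given here. Passing there is therefore not shown to be particular to the members.

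Combined treatment was also set against each single treatment. Against HIIT, the change was 0.58 ± 0.31 for Dbp, 0.40 ± 0.17 for Tef and 0.49 ± 0.16 for Hlf in limma (adjusted p = 0.493, 0.395 and 0.257). Against semaglutide, it was 0.96 ± 0.31, 0.33 ± 0.17 and 0.36 ± 0.16 (adjusted p = 0.469, 0.656 and 0.63). None passed, although the combined Tef and Hlf libraries did not overlap with either single treatment. Leaving out control 3 and semaglutide 2, which are in neither the combined nor the HIIT group, kept the change of Hlf against HIIT at 0.49. Its standard error, which draws on the spread in all groups, went from 0.16 to 0.09, and Hlf passed (limma, adjusted p = 0.0189). The share of all genes passing in that fit is not given here.

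The liver table resolves transcripts, and Tef and Dbp each had a second form with a sizeable share. Tef-202, which starts 252 bases before the first of the RefSeq starts shown above, made up 64.6 to 83.9% of the gene's FPKM, and Tef-201, which begins exactly at the second, 14.2 to 33.9%. The 30 bases around the first E-box therefore lie inside a Tef-202 exon, while the second window holds no Tef exon. Tef-202 had 23, 18.9 and 13.3 FPKM in controls, 28.1, 20.4 and 22.7 with HIIT, 29.1, 28.1 and 25.6 with semaglutide and 35, 37.1 and 38.4 with both. Tef-201 had 5.04, 9.62 and 5.19 FPKM in controls, 13.7, 9.9 and 11.9 with HIIT, 9.94, 10.5 and 8.39 with semaglutide and 11.6, 11.4 and 6.5 with both. Tef-202 followed the order of the whole gene, whereas Tef-201 was highest with HIIT. With transcripts fitted one by one, combined treatment changed Tef-202 by 1.00 ± 0.18 and Tef-201 by 0.52 ± 0.26 (limma, adjusted p = 0.0882 and 0.553), and HIIT changed them by 0.37 ± 0.18 and 0.80 ± 0.26 (adjusted p = 0.75 and 0.687). The difference between the forms was not tested. Dbp-201, which starts 159 bases before the RefSeq start used for the Dbp window, held 75.6 to 96.2% of Dbp and Dbp-204 held 3.8 to 24.4%. Dbp-204 had 2.39, 2.46 and 0.295 FPKM in controls, 6.88, 2.3 and 2.03 with HIIT, 2.52, 1.09 and 3.9 with semaglutide and 9.38, 7.04 and 2.96 with both, so the combined libraries were above all controls for this form too. Combined treatment changed Dbp-201 by 1.38 ± 0.29 and Dbp-204 by 1.48 ± 0.54 (limma, adjusted p = 0.158 and 0.385). Hlf-201 held 96.6 to 99.5% of Hlf, and Nfil3, Nr1d1, Nr1d2 and Wee1 each had a single transcript with all or nearly all of the signal.

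Nfil3, the repressor that competes with these activators at the D-box, ran the other way in group means. It had 11, 22.3 and 19.5 FPKM in control livers, 9.43, 17.5 and 12.8 with HIIT, 12.7, 15.1 and 7.89 with semaglutide and 7.84, 8.78 and 10.4 with both. Every combined library was below every control, though control 1, at 11 FPKM, lies close to the highest combined library. The change with combined treatment was -0.85 ± 0.29 and did not pass in limma (adjusted p = 0.257), nor did those with HIIT (-0.37 ± 0.29, adjusted p = 0.801) and semaglutide (-0.52 ± 0.29, adjusted p = 0.419).

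Of the REV-ERB receptors, Nr1d1 separated training from semaglutide. It had 26.1, 20.3 and 17.7 FPKM in control livers, 31.2, 28.4 and 29.4 with HIIT, 12.2, 18.5 and 9.43 with semaglutide and 18.5, 15.6 and 18.9 with both. All HIIT libraries were above all others. The semaglutide libraries at 12.2 and 9.43 FPKM and the combined library at 15.6 lay below every control. The other semaglutide and combined libraries lay between control 3 and control 2. Averaged over sedentary and trained mice (the semaglutide main effect, 6 libraries against 6), Nr1d1 fell by 0.69 ± 0.15 in limma (adjusted p = 0.0409), against 1.02% of all genes called lower. The libraries overlap in this contrast, since control 3 (17.7) is below the highest semaglutide-treated library. The call is not firm: it was lost when any of 10 of the 12 libraries was left out, with adjusted p from 0.00572 to 0.109, and it was kept without control 3 or without semaglutide 2. Against their own controls, HIIT changed Nr1d1 by 0.47 ± 0.21 (adjusted p = 0.687), semaglutide by -0.67 ± 0.21 (adjusted p = 0.175) and both by -0.25 ± 0.21 (adjusted p = 0.715). Without semaglutide 2, which had the highest Nr1d1 of its group, the change with semaglutide passed (-0.91, adjusted p = 0.0462). Combined treatment against HIIT gave -0.72 ± 0.21 for Nr1d1 (adjusted p = 0.19), and against semaglutide 0.42 ± 0.21 (adjusted p = 0.645).

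Nr1d2, the second REV-ERB, moved less. It had 10.7, 10.8 and 8.99 FPKM in controls, 15, 11.9 and 12.8 with HIIT, 11.6, 14.5 and 11.8 with semaglutide and 12.9, 13.7 and 13.1 with both. Every treated library was above every control, and the treated groups overlap one another. The changes were 0.35 ± 0.12 with HIIT, 0.29 ± 0.12 with semaglutide and 0.35 ± 0.12 with both, and none passed in limma (adjusted p = 0.682, 0.293 and 0.247). So with semaglutide the estimates for the REV-ERBs had opposite signs, positive for Nr1d2 and negative for Nr1d1.

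Npas2, which can take the place of CLOCK, was scarce in liver and stayed below the level required for testing. It had 0.617, 0.198 and 0.14 FPKM in controls, 0.229, 0.367 and 0.37 with HIIT, 0.0587, 0.265 and 0.0407 with semaglutide and 0.121, 0.0169 and 0.097 with both. The highest semaglutide-treated library was semaglutide 2, and the other libraries with semaglutide or both treatments lay below every control.

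Wee1 encodes the kinase that delays entry into mitosis by phosphorylating CDK1, and in mouse liver it is a known direct target of the clock. It had 1.46, 0.915 and 0.886 FPKM in control livers, 3.58, 1.47 and 2.17 with HIIT, 4.13, 4.15 and 3.68 with semaglutide and 4.8, 6.4 and 4.65 with both. Groups ran in the order control, HIIT, semaglutide, combined without any overlap between neighbours, although HIIT 2 is only just above control 1 and the lowest semaglutide library just above HIIT 1. Wee1 rose with semaglutide by 1.27 ± 0.21 in limma (adjusted p = 0.0274), where 0.251% of all genes were called higher, and with combined treatment by 1.59 ± 0.21 (adjusted p = 0.0202), where 0.174% were. Over sedentary and trained mice together, it rose with semaglutide by 1.09 ± 0.15 (adjusted p = 0.0071), where 0.986% of all genes were called higher, and all 6 semaglutide-treated libraries were above all 6 others, as in 1.91% of genes. HIIT gave 0.67 ± 0.21 (adjusted p = 0.676), and combined treatment gave 0.92 ± 0.21 against HIIT (adjusted p = 0.123) and 0.32 ± 0.21 against semaglutide (adjusted p = 0.705). The call of the semaglutide main effect on Wee1 held under every alternative and with each library left out in turn. That of semaglutide alone held without control 1 (adjusted p = 0.0154) and was lost without control 2 (0.107), control 3 (0.0906) or any semaglutide library (0.0503 to 0.102), and also without control 3 and semaglutide 2 together (1.18, adjusted p = 0.078). The combined call likewise held without control 1 (adjusted p = 0.00922) and was lost without control 2 (0.127), control 3 (0.0501) or any combined library (0.0558 to 0.117), while the change itself stayed between 1.47 and 1.71. Of the 10 liver libraries in which Wee1 reached 1 FPKM, 9 were treated, so it met the level for testing mainly through the groups where it was high.

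The liver counts and medians below include Wee1. It entered the test mainly through treated groups, where it was high, so its change lends no weight to them. Counted over the 7 members tested in liver, HIIT left 4 above all controls without overlap (Tef, Nr1d1, Nr1d2 and Wee1), where 11% of all genes did so, and called 0. By an unadjusted p under 0.05, HIIT against control gave 5 members higher, with 4.48% of all genes. Semaglutide also left 4 above all controls (Dbp, Tef, Nr1d2 and Wee1; 10.2% of all genes) and called 1, Wee1. Combined treatment left 5 above (Dbp, Tef, Hlf, Nr1d2 and Wee1; 13.8% of all genes) and 1 below (Nfil3; 6.23%), and called 1, Wee1. Against HIIT, combined treatment left 3 members above (Tef, Hlf and Wee1; 17.3% of all genes) and Nr1d1 below (14.5%). Against semaglutide it left 4 above (Dbp, Tef, Hlf and Wee1; 8.45%). Of all genes, limma called 0% with HIIT against control, 0.116% in combined treatment against HIIT and 0% in combined treatment against semaglutide. The median change over tested members was 0.47 with HIIT, 0.37 with semaglutide and 0.74 with both, beside 0.05, 0.09 and 0.05 over all genes. Averaged over semaglutide use, training (the HIIT main effect) gave Dbp 0.93 ± 0.22, Wee1 0.50 ± 0.15, Nr1d1 0.44 ± 0.15, Tef 0.42 ± 0.12, Hlf 0.30 ± 0.11, Nr1d2 0.21 ± 0.09 and Nfil3 -0.35 ± 0.21, with 0 passing in limma (adjusted p = 0.58 to 0.783; 0% of all genes passed) and 6 higher at an unadjusted p under 0.05, as 5.32% of all genes were. The semaglutide main effect was 0.55 ± 0.22 for Dbp, 0.49 ± 0.12 for Tef, 0.43 ± 0.11 for Hlf, 0.15 ± 0.09 for Nr1d2 and -0.50 ± 0.21 for Nfil3 (adjusted p = 0.226, 0.0671, 0.0851, 0.407 and 0.245). The interaction of the treatments called 0 of the 7 in limma, where 0.00966% of all genes passed, and 0 had an unadjusted p under 0.05, against 8.61% of all genes.

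**Figure D2:**
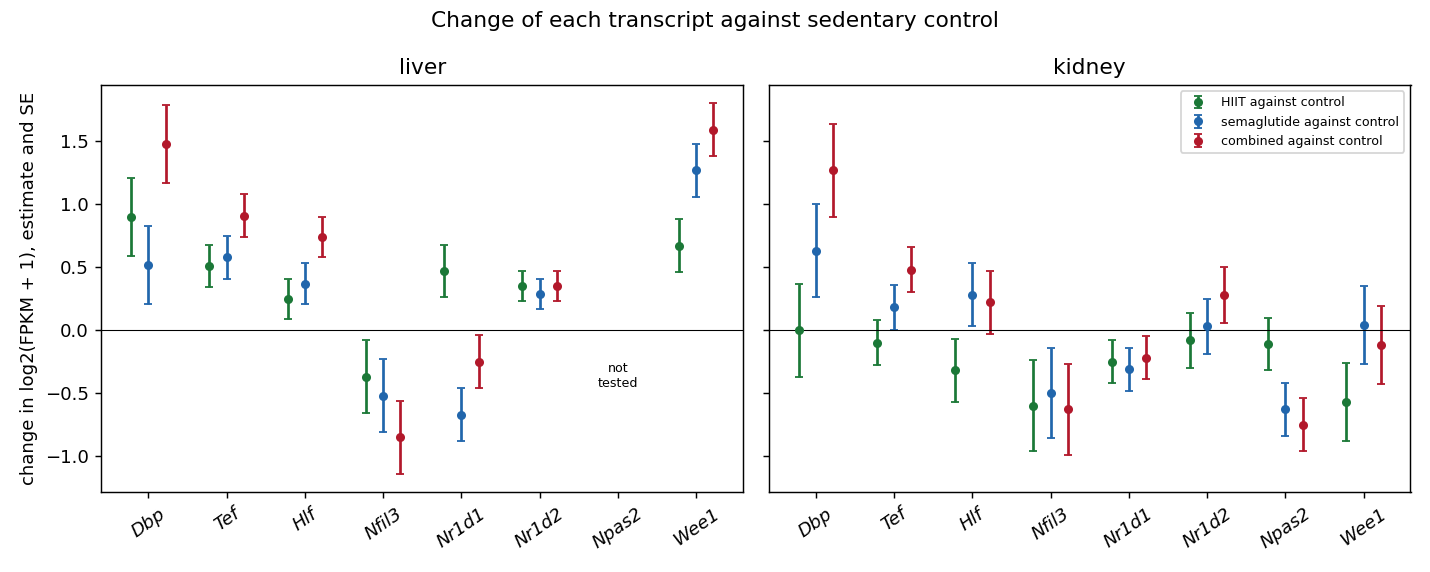
Change in log2(FPKM + 1) against control (vertical axis) for each transcript, in liver (left) and kidney (right); points are limma estimates and bars their standard errors. In liver only Wee1 passed, at 1.27 with semaglutide and 1.59 with both; in kidney no member passed, and Dbp at 1.27 and Npas2 at -0.75 with both were the farthest from 0. Npas2 was not tested in liver, and in kidney it entered the test only through control and HIIT libraries. Liver Wee1 entered mainly through treated libraries.

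In the kidney, no member passed in any comparison, and the clearest pattern was in Dbp. Npas2 also moved, but it entered the test only through mice without semaglutide. Kidney levels come from a table made apart from the liver's, so levels are not compared between the organs. As deposited, kidney values carry a shift over all genes, with a median change of -0.26 for HIIT, -0.14 for semaglutide and -0.09 for both against control. For combined treatment against HIIT it was 0.16. After median-ratio scaling these medians were 0.00 or -0.01. Scaled values are given where the sign depends on it and in some other comparisons.

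Dbp had 20.3, 39.7, 9.72 and 26 FPKM in control kidneys, 24.9, 31, 15.3 and 17.3 with HIIT, 40.1, 36.8, 16.1 and 53.5 with semaglutide and 47.6, 57, 58.2 and 50 with both. All combined libraries lay above all control and HIIT libraries, while the other groups were widely spread and overlap. The 2 thick ascending limb markers, both detected, were also higher in combined than in control kidneys, summing to 604 to 1060 FPKM against 256 to 525. They overlapped with the other groups, at 195 to 1170 with HIIT and 226 to 1050 with semaglutide. Their part in the Dbp values was not tested. The change with combined treatment was 1.27 ± 0.37 (limma, adjusted p = 0.771; unadjusted p = 0.0028), and against HIIT it was 1.28 ± 0.37 (adjusted p = 0.684). After scaling, the change of Dbp with both against HIIT was 1.07 ± 0.45 (limma, adjusted p = 0.833). HIIT gave -0.00 ± 0.37 for Dbp as deposited and 0.29 ± 0.45 after scaling, and semaglutide gave 0.63 ± 0.37 (adjusted p = 0.994, 0.827 and 0.913).

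Tef had 31.3, 44.6, 27.6 and 36.9 FPKM in control kidneys, 25.5, 37.4, 30.8 and 36.7 with HIIT, 46.1, 34.8, 34.9 and 42.2 with semaglutide and 42.1, 50.2, 48.1 and 54.1 with both. As deposited, the combined libraries were above every HIIT library and overlapped with control 2. The change was 0.48 ± 0.18 with both (limma, adjusted p = 0.994), 0.18 ± 0.18 with semaglutide (0.913) and -0.10 ± 0.18 with HIIT (0.726; 0.20 ± 0.21 after scaling), and 0.57 ± 0.18 for both against HIIT (0.761). After scaling, the change of Tef with both against HIIT was 0.37 ± 0.21 (limma, adjusted p = 0.869). Hlf had 13.2, 20.8, 21.7 and 23.1 FPKM in controls, 10.6, 11.1, 20.4 and 22 with HIIT, 29.6, 17.4, 29.3 and 20.5 with semaglutide and 21.3, 27, 24.1 and 18.8 with both. All Hlf groups overlap, and its changes were -0.32 ± 0.25, 0.28 ± 0.25 and 0.22 ± 0.25 with HIIT, semaglutide and both (adjusted p = 0.445, 0.913 and 0.994).

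**Figure D3:**
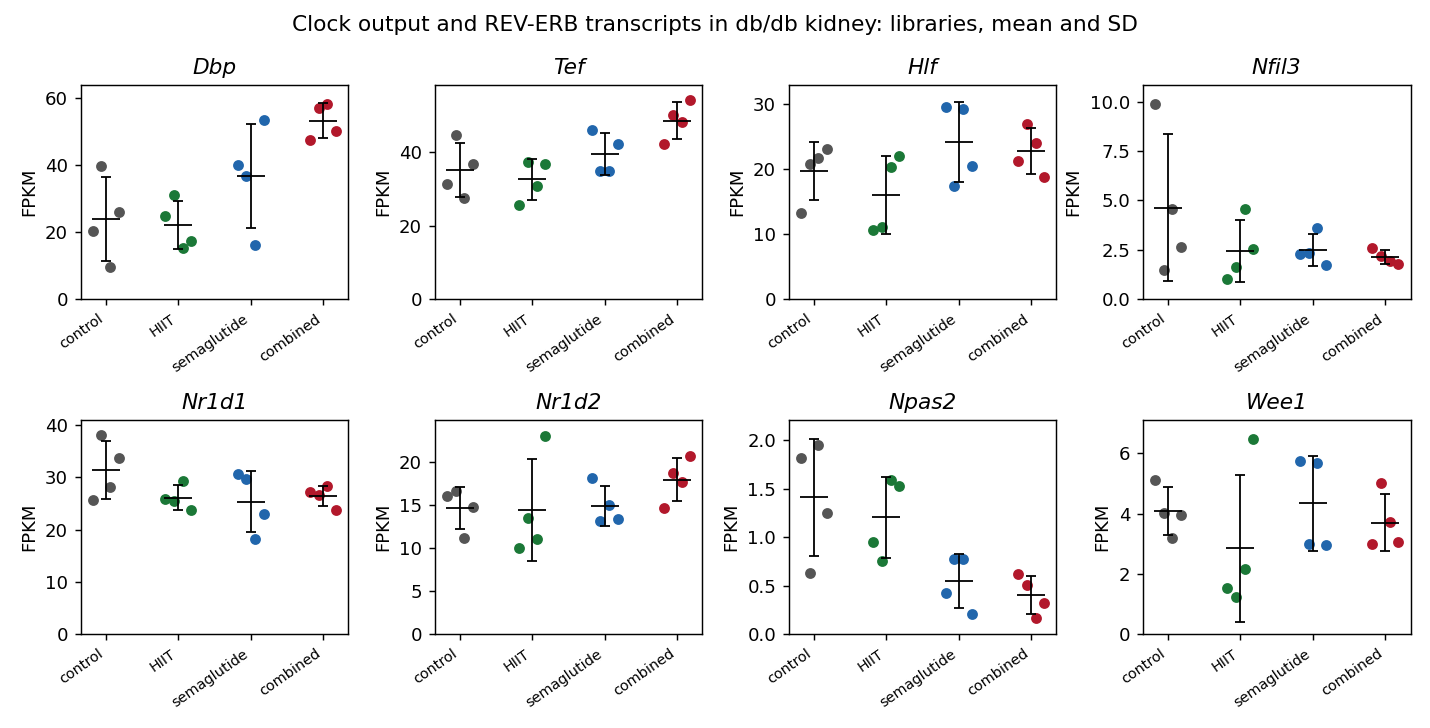
FPKM (vertical axis, from 0) of the 8 transcripts in each kidney library, by group (horizontal axis, 4 libraries each); bars are the mean and SD. Combined Dbp libraries, at 47.6 to 58.2 FPKM, lie above all control and HIIT libraries, and Npas2 was below 1 FPKM in all semaglutide-treated libraries.

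Npas2 reached the testing level in kidney, but only through mice without semaglutide: 5 control or HIIT libraries reached 1 FPKM and no semaglutide-treated library did. It had 1.82, 0.627, 1.95 and 1.25 FPKM in controls, 0.946, 0.757, 1.59 and 1.53 with HIIT, 0.424, 0.77, 0.776 and 0.205 with semaglutide and 0.62, 0.501, 0.17 and 0.324 with both. The combined libraries lay below all control and HIIT libraries, although combined 1 (0.62) is only just below control 2 (0.627). With semaglutide alone, libraries overlapped with control 2 and HIIT 2. The change was -0.75 ± 0.21 with both, -0.63 ± 0.21 with semaglutide and -0.11 ± 0.21 with HIIT (limma, adjusted p = 0.745, 0.913 and 0.739), and the HIIT value was 0.05 ± 0.18 after scaling. The semaglutide main effect on Npas2 was -0.63 ± 0.15 (adjusted p = 0.222; unadjusted p = 0.000485). Since Npas2 entered the test through the groups where it was high, its changes and p-values lend no weight to an effect of semaglutide or to a count of members.

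Nfil3 was also uneven in kidney. It had 9.88, 1.5, 4.56 and 2.62 FPKM in controls, 1.02, 1.61, 4.57 and 2.55 with HIIT, 2.31, 2.35, 3.61 and 1.71 with semaglutide and 2.61, 2.17, 1.95 and 1.79 with both. All groups overlap, and the highest value by far was in control 1, the library rich in macrophage, plasma cell and fibroblast markers. The changes were -0.60 ± 0.36 with HIIT, -0.50 ± 0.36 with semaglutide and -0.63 ± 0.36 with both (limma, adjusted p = 0.388, 0.913 and 0.994). Without control 1 the changes of Nfil3 shrank to -0.21, -0.11 and -0.24. The part of other cell types in this difference was not tested.

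The kidney REV-ERBs showed little. Nr1d1 had 25.6, 38.1, 28.2 and 33.8 FPKM in controls, 25.8, 25.5, 29.4 and 23.7 with HIIT, 30.6, 29.7, 18.1 and 23 with semaglutide and 27.2, 26.7, 28.3 and 23.7 with both. Its groups overlap, and its changes were -0.25 ± 0.17, -0.31 ± 0.17 and -0.22 ± 0.17 with HIIT, semaglutide and both (limma, adjusted p = 0.42, 0.913 and 0.994), the HIIT value being 0.05 ± 0.22 after scaling. Nr1d2 had 16, 16.6, 11.2 and 14.8 FPKM in controls, 10, 13.5, 11 and 23 with HIIT, 18.1, 13.1, 15 and 13.4 with semaglutide and 14.7, 18.7, 17.7 and 20.7 with both. The groups overlap, and HIIT 4 was the highest of the 16 as deposited. The changes of Nr1d2 were -0.08 ± 0.22 (0.20 ± 0.18 after scaling), 0.03 ± 0.22 and 0.28 ± 0.22 in the same order (adjusted p = 0.811, 0.98 and 0.994).

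Wee1 had 5.13, 4.01, 3.2 and 3.97 FPKM in control kidneys, 1.53, 1.23, 2.15 and 6.48 with HIIT, 5.74, 3, 5.69 and 2.95 with semaglutide and 2.98, 5.03, 3.71 and 3.06 with both. In values as deposited, 3 of the 4 HIIT libraries were below every other kidney library, and the last, HIIT 4, was the highest of all 16. HIIT 4 also had the lowest share of mitochondrially encoded transcripts among the HIIT libraries (29.07% of summed FPKM against 36.47 to 56.7%) and the most thick ascending limb marker signal of any kidney library (1170 FPKM); their part in the Wee1 value was not tested. The change with HIIT was -0.57 ± 0.31 in limma (adjusted p = 0.381), and without HIIT 4 it was -0.95 and passed (adjusted p = 0.04). The share of all genes passing without HIIT 4 is not given here, so this is not shown to be particular to Wee1. The median-ratio scaling factor of HIIT 4 was 1.244, against 0.688, 0.737 and 1.013 in the other HIIT libraries. After scaling, with all libraries, the HIIT change of Wee1 was -0.37 ± 0.23 (limma, adjusted p = 0.602). Semaglutide gave 0.04 ± 0.31 and both together -0.12 ± 0.31 for Wee1 (adjusted p = 0.982 and 0.994).

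Kidney counts leave out Npas2, for the reason given above, and cover the other 7 members. None was free of overlap with controls under HIIT (0.424% of all genes lay above and 2.77% below) or semaglutide (0.493% and 3.09%). Combined treatment left Dbp above all controls (1.46% of all genes), and against HIIT it left Dbp and Tef above (2.26%). These counts rest on values as deposited. Divided by its median-ratio scaling factor of 0.737, Tef in HIIT 2 falls within the scaled range of the combined libraries, so Tef then overlaps. Against control, limma called 0% of genes with HIIT, 0.00866% with semaglutide and 0% with both. Members with an unadjusted p under 0.05 numbered 0 with HIIT, 0 with semaglutide and 2 with both (Dbp and Tef), against 12.5, 3.32 and 2.99% of all genes. The semaglutide main effect was 0.96 ± 0.26 for Dbp, 0.38 ± 0.12 for Tef, 0.41 ± 0.18 for Hlf, 0.24 ± 0.22 for Wee1, 0.20 ± 0.15 for Nr1d2, -0.14 ± 0.12 for Nr1d1 and -0.27 ± 0.26 for Nfil3 (adjusted p = 0.414 to 1). The HIIT main effect ranged from -0.37 ± 0.26 for Nfil3 to 0.32 ± 0.26 for Dbp (adjusted p = 0.822 to 0.866). Of all genes, 0.0173% and 0% passed in these main effects. Neither combined treatment against semaglutide nor the interaction called a member in limma (0.00866% and 0% of all genes passed; 0.00866% for combined treatment against HIIT), and 0 members had an unadjusted p under 0.05 in either, against 1.14% and 3.95% of all genes.

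The change of each member was also compared between the organs, over 9505 genes tested in both. The labels do not say whether liver and kidney libraries come from the same mice; the standard errors and p-values of these differences treat them as independent and would not hold as given if mice were shared. The estimates for Wee1 differed most, but Wee1 entered the liver test mainly through treated groups, where it was high. Its differences therefore lend no weight to a contrast between the organs. With combined treatment the change of Wee1 was 1.71 ± 0.37 greater in liver than in kidney. This did not pass (difference of limma estimates, adjusted p = 0.105, unadjusted p = 8.88e-05), where 0.0316% of genes did. The share was 0.021% for HIIT, 0% for semaglutide, 0.105% for the semaglutide main effect and 0% for the HIIT main effect, and 0 members passed in any. The Wee1 difference with combined treatment passed without liver control 1 (1.83, adjusted p = 0.0288). With HIIT the difference for Wee1 was 1.24 ± 0.37 (adjusted p = 0.346) and passed without kidney HIIT 4 (1.62, adjusted p = 0.0197), and with semaglutide it was 1.23 ± 0.37 (adjusted p = 0.457). These differences use values as deposited. In those, the median HIIT change over all genes was 0.05 in liver and -0.26 in kidney, a gap that enters every HIIT difference. After median-ratio scaling, HIIT changed Wee1 by 0.64 ± 0.20 in liver and -0.37 ± 0.23 in kidney. For Nr1d1, the difference in the semaglutide main effect was -0.55 ± 0.19 (adjusted p = 0.407), more negative in liver. For Dbp the changes with combined treatment, 1.48 in liver and 1.27 in kidney, differed by 0.21 ± 0.48 (adjusted p = 0.995), an interval too wide to show that the organs respond alike.

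Within a library, the ratio of 2 transcripts does not depend on how the library was scaled. The log2 ratio of Dbp to Nr1d1 was -0.75, -0.46 and -1.2 in control livers, 0.27, -0.88 and -0.4 with HIIT, 0.73, -0.13 and 0.78 with semaglutide and 1.06, 1.35 and 0.64 with both. It was below 0 in all control livers and above 0 in all combined ones. In kidney it was -0.34, 0.06, -1.54 and -0.38 in controls, -0.05, 0.28, -0.95 and -0.45 with HIIT, 0.39, 0.31, -0.17 and 1.22 with semaglutide and 0.81, 1.09, 1.04 and 1.08 with both. Here too the combined libraries lay above all control and HIIT libraries and close together. The ratio was formed after the values of both genes had been seen and is a description, with no test.

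**Figure D4:**
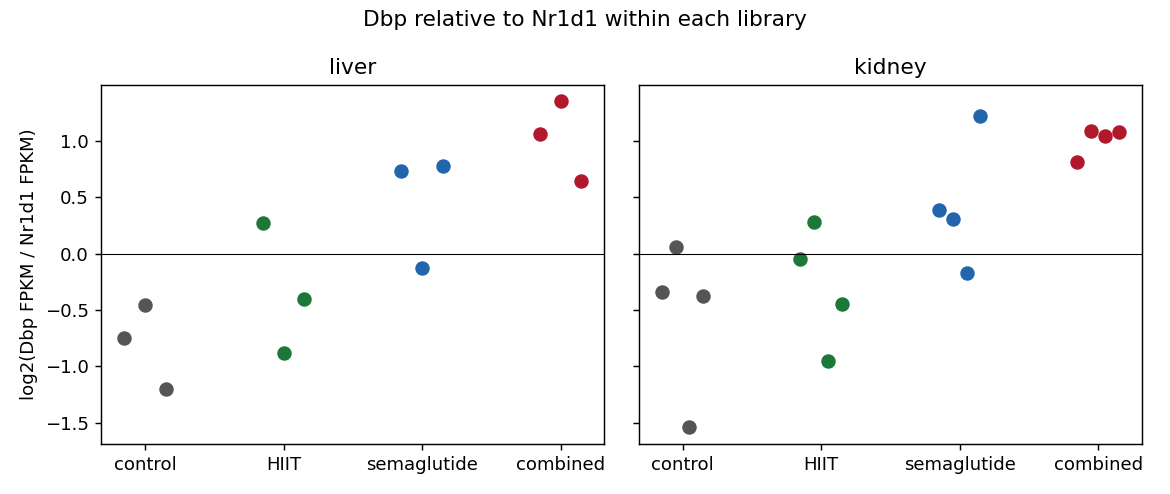
log2 of the Dbp to Nr1d1 FPKM ratio (vertical axis) in each liver (left) and kidney (right) library, by group (horizontal axis); each point is a library and the line marks equal FPKM. Combined libraries range from 0.64 to 1.35 in liver and from 0.81 to 1.09 in kidney, above all controls.

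Libraries of the same group differed in these transcripts, and some members varied together. After subtracting group means, liver Dbp and Tef had Pearson's r = 0.94 and Spearman's rho = 0.98 over 12 libraries (permutation within groups, p = 0.00149 for each; adjusted over 16 pairs, 0.0238 and 0.0119), and r was 0.95 without the 2 libraries with the most extreme Dbp. In kidney the same pair gave r = 0.61 and rho = 0.54 (permutation, adjusted p = 0.122 and 0.167), and 0.46 without control 3 and HIIT 3; under median-ratio scaling r was 0.83 and passed (adjusted p = 0.0096). Kidney Nfil3 and Npas2, both known as REV-ERB targets, had r = 0.79 and rho = 0.88 over 16 libraries (permutation, p = 0.00497 and 0.00068; adjusted p = 0.0398 and 0.0109), and 0.87 without control 1 and HIIT 3. Under median-ratio scaling this r was 0.64 and no longer passed. Kidney Dbp and Nfil3, activator and repressor at the same element, were opposed, with rho = -0.82 (permutation, p = 0.00278, adjusted p = 0.0148) and r = -0.64 (p = 0.0425, adjusted p = 0.122). Liver Dbp and Wee1 had r = 0.82 and rho = 0.76 (permutation, adjusted p = 0.0767 and 0.123), against r = -0.27 in kidney, and liver Dbp and Nr1d1, both activated through E-boxes, had r = 0.29 and rho = 0.36 (adjusted p = 0.355 and 0.358). The other pairs did not pass. Liver Nr1d1 and Npas2, a receptor and a gene it represses, had r = 0.78 (permutation, adjusted p = 0.0767), with Npas2 below 1 FPKM in every liver library. In kidney this pair gave r = -0.36. Liver Nfil3 and Npas2 gave -0.18. Dbp and Hlf gave 0.44 in liver and -0.36 in kidney, and Nr1d1 and Nr1d2 gave 0.66 and -0.08. Liver Dbp and Nfil3 gave -0.52, and kidney Dbp and Nr1d1 gave 0.55. All values of a library share its scaling and its hour of collection.

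**Figure D5:**
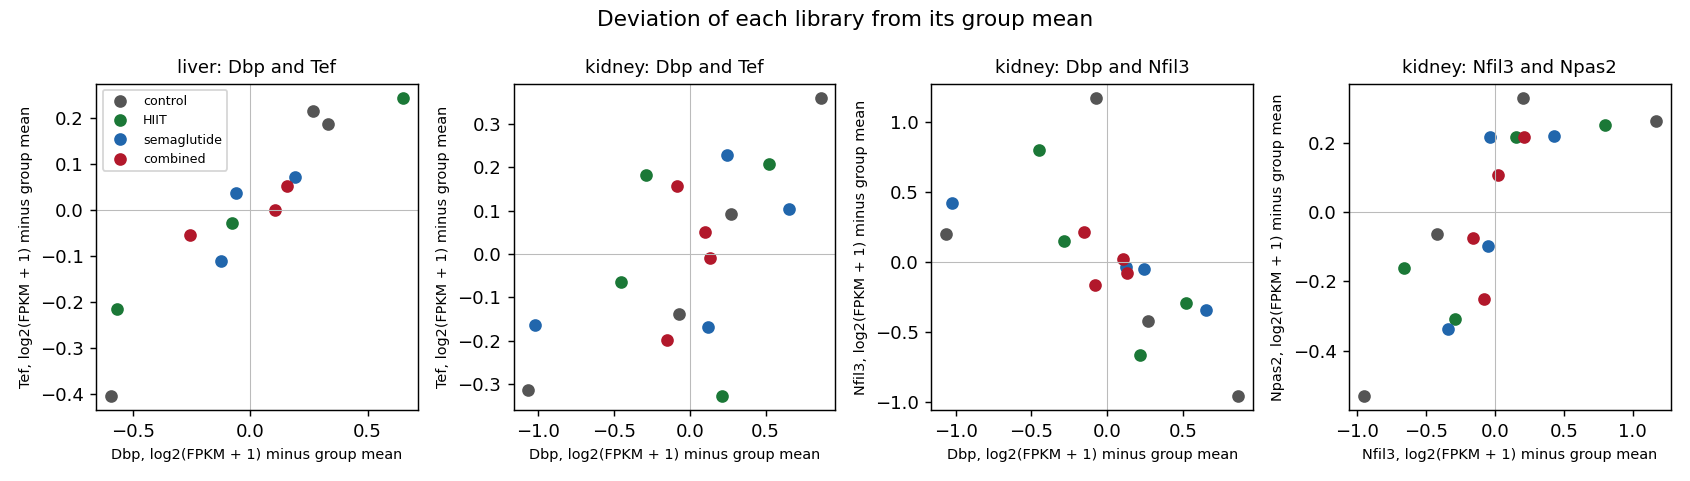
Deviation of each library from its group mean, in log2(FPKM + 1), for liver Dbp and Tef and for kidney Dbp and Tef, Dbp and Nfil3, and Nfil3 and Npas2; each point is a library. Pearson's r over these points is 0.94, 0.61, -0.64 and 0.79 from left to right.

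The genes whose levels most resembled each member over all libraries, group differences included, were looked up among all tested genes by Pearson's r on the log2 scale, as a description. Liver Dbp was most like Tef (0.93), Zfp871 (0.92) and Tnfrsf19 (0.91), and liver Wee1 most like Per3 (0.94), Khdc4 (0.94) and Per2 (0.93), over 12 libraries. Liver Hlf was most like Smlr1 (0.97), Nfil3 like Morn2 (0.97), Nr1d1 like Zfp277 (0.94), Nr1d2 like Smarca2 (0.92) and Tef like Plcg1 (0.95). Over 16 kidney libraries, Dbp was again most like Tef (0.81), Tef like Per3 (0.89) and Per2 (0.85), and Npas2 like Itgb6 (0.88). Kidney Hlf was most like Aass (0.96), Wee1 like Prpf38a (0.96), Nfil3 like Sdf2l1 (0.91), Nr1d2 like Tapt1 (0.86) and Nr1d1 like Arl3 (0.78). The period genes Per2 and Per3, repressors of the clock, were thus among the 3 genes most like Wee1 in liver and Tef in kidney.

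The wider clock was read from lists of other genes. Of 17 core clock genes, 14 were tested in liver: 3 rose and 0 fell with semaglutide, 2 rose and 0 fell with combined treatment, 0 passed with HIIT (1 was higher at an unadjusted p under 0.05), and 5 rose and 0 fell in the semaglutide main effect. Of all liver genes, 0.251%, 0.174%, 0% and 0.986% were called higher in these comparisons in that order, and 4.48% were higher with HIIT at an unadjusted p under 0.05. The list's median change was 0.18, 0.26 and 0.43 with HIIT, semaglutide and both, beside 0.05, 0.09 and 0.05 over all genes. Per3 averaged 2.09 ± 0.663 FPKM (SD, n = 3) in control livers and 7.46 ± 1.08 with both treatments (1.47 ± 0.21, limma, adjusted p = 0.0238). Per2 rose with semaglutide by 1.03 ± 0.14 (adjusted p = 0.0214) and Cry1 by 0.63 ± 0.12 (adjusted p = 0.0412). In kidney 15 were tested and limma called 0 in every comparison; at an unadjusted p under 0.05, HIIT gave 0 higher and 5 lower, semaglutide 1 and 0, and both 4 and 1. Of all kidney genes, 0.632% were higher and 11.8% lower by this measure with HIIT, 0.667% and 2.66% with semaglutide, and 1.36% and 1.63% with both. The list's kidney median was -0.44 with HIIT, -0.10 with semaglutide and 0.04 with both, beside -0.26, -0.14 and -0.09 over all genes.

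Of 8 known targets of the PAR bZIP factors, all were tested in liver. With combined treatment 1 rose, Nr1i3, which encodes the xenobiotic receptor CAR, where 0.174% of all genes were called higher. Nr1i3 averaged 75.7 ± 32.9 FPKM (SD, n = 3) in controls and 304 ± 23 with both (2.07 ± 0.30, limma, adjusted p = 0.0245), and it rose in the semaglutide main effect (1.32 ± 0.22, adjusted p = 0.0153). No target fell, and 0 passed with HIIT or semaglutide alone, where 2 each were higher at an unadjusted p under 0.05, as were 4.48% and 8.79% of all genes. The median change of the list was 1.04, 0.83 and 1.35 with HIIT, semaglutide and both, against 0.05, 0.09 and 0.05 over all genes. Cyp7a1, the rate-limiting enzyme of bile acid synthesis, averaged 18 ± 17.2 FPKM in controls and 78.5 ± 23.6 with semaglutide (2.58 ± 0.66, adjusted p = 0.12). In kidney 4 were tested and 0 passed in limma, with 2 higher and 0 lower with both treatments at an unadjusted p under 0.05 (1.36% and 1.63% of all genes). Kidney Cyp2a4, a cytochrome P450 with close paralogs that share reads, was at 52.8 ± 25.6 FPKM (SD, n = 4) in controls and 139 ± 33.5 with both (1.51 ± 0.34, adjusted p = 0.436).

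Of 10 known REV-ERB targets, all were tested in liver. With semaglutide 1 rose, Cidec, where 0.251% of all genes were called higher, and 0 fell. With HIIT or both, 0 passed. At an unadjusted p under 0.05, 1 was higher with HIIT, beside 4.48% of all genes, and 5 differed with both, beside 12.2%. The median change of the list was 0.10, 0.10 and -0.32 with HIIT, semaglutide and both. Cidec, a lipid droplet gene also strong in adipocytes, averaged 2.64 ± 1.07 FPKM (SD, n = 3) in controls and 84.5 ± 95.3 with semaglutide (4.00 ± 0.77, limma, adjusted p = 0.0469), with the highest value, 194 FPKM, in semaglutide 2. Summed adipocyte markers were 1390 FPKM in semaglutide 2 and 10.9 or less in the other semaglutide livers, and their part was not tested. In kidney 9 were tested and 0 passed in limma; with HIIT, semaglutide and both, 1, 2 and 1 had an unadjusted p under 0.05, beside 12.5, 3.32 and 2.99% of all genes. Of the 6 corepressor genes 0 passed in either organ. At an unadjusted p under 0.05, the most in a liver comparison was 2, in the semaglutide main effect, beside 17.5% of all genes. In kidney the most was 1, with HIIT, beside 12.5%. Among 9 other rhythmic genes tested in each organ, Usp2, a deubiquitinase gene, rose in the liver semaglutide main effect (1.00 ± 0.21, limma, adjusted p = 0.0407), where 0.986% of all genes were called higher. In kidney 0 passed. With HIIT, 7 of the 9 in kidney were lower at an unadjusted p under 0.05 with a list median of -0.66, in a comparison where 11.8% of all genes were lower and the median over all genes was -0.26. Of 8 genes that respond to glucocorticoids, hormones that also set clock genes, liver Tat, the tyrosine aminotransferase gene, fell with semaglutide (the change was -1.23 ± 0.23, adjusted p = 0.0413; 0.464% of all genes were called lower) and in the semaglutide main effect (-0.89 ± 0.16, adjusted p = 0.0232), and 0 passed in kidney, where 3 of 7 were lower with HIIT at an unadjusted p under 0.05, in the same comparison. Of 12 genes of mitotic entry, where WEE1 acts, only 4 reached the testing level in either organ and 0 passed, with at most 1 at an unadjusted p under 0.05 in a comparison. In liver this was in combined treatment against HIIT, the interaction and the semaglutide main effect, beside 12%, 8.61% and 17.5% of all genes. In kidney it was with semaglutide and in the semaglutide main effect, beside 3.32% and 4.65%.

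Some readings overlap with other genes. Exons of Dbp overlap those of Sphk2, exons of Nr1d1 those of Thra and exons of Tef those of Gm17597, each on the opposite strand (GENCODE M21, GRCm38). Libraries were stranded per the labels, but the sources used here do not say whether counting used the strand, so reads of such neighbours cannot be told apart. Sphk2 ranged from 12.3 to 20.1 FPKM in liver and changed by -0.15 ± 0.15 with combined treatment (limma, adjusted p = 0.792), beside 1.48 for Dbp. Thra ranged from 4.91 to 14.3 FPKM in liver, with a semaglutide main effect of 0.15 ± 0.21 (adjusted p = 0.723), beside -0.69 for Nr1d1.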

How the data were processed

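Polyadenylated RNA of liver and kidney was sequenced by the authors in stranded libraries, per the labels' protocols. Tools listed, with no role for each, in the submitters' processing notes are STAR 2.7.9a, StringTie 2.1.4, featureCounts 2.0.1 and Trimmomatic 0.36, beside CASAVA and FastQC, with the build GRCm39. Both tables hold FPKM as deposited by the authors, with no read counts; the sources used here do not say how libraries were scaled to one another. Low liver values did not fall on whole-fragment steps (14 to 15.6% within 0.05 of one, against 10% with no steps), so counts were not recovered.

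Liver transcripts were summed by gene name, and 470 liver and 1853 kidney entries without a gene name were left out. log2(FPKM + 1) values were fitted with limma 3.58.1 (trend, R 4.3.3) over the 4 groups of a tissue, without a replicate block, and p-values were adjusted over all tested genes (threshold 0.05). Main effects average a treatment over the presence of the other. Differences between organs used both estimates and their standard errors with Satterthwaite degrees of freedom, taken as independent. Pairs were tested with 100000 permutations within groups. The scripts were tested on simulated data. Figures used Python 3.11.15 and matplotlib 3.10.9.

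The 8 genes and the lists of other genes were chosen with earlier results of these data known. Of each list, up to 4 genes with the smallest p in a tissue could be named, and of the genes most like a member the first 3; predicted genes and pseudogenes were left out. The values of 1 listed gene are not reported here. Other settings tried were median-ratio scaling, no filter, a pseudocount of 0.1, a replicate block, robust variance estimates, only the groups compared, liver transcripts one by one, leaving out the libraries that stand apart (liver control 3 and semaglutide 2, kidney control 1) and leaving out each library. The highest correlation between 2 libraries was 0.9962 in liver and 0.9947 in kidney, and none were identical.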

Additional observations from a re-analysis of the deposited data

How the results depend on the processing

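Counts of members called, as reported, were 1 for semaglutide and 1 for both treatments against control in liver, 2 for the liver semaglutide main effect and 0 elsewhere. Each of these liver counts includes Wee1, which entered the test mainly through treated groups. The first 2 were 0 with no filter, with the replicate number as a block, and with only the groups compared in the fit; the first was also 0 with transcripts one by one. The main effect called 1 (Wee1) with no filter, the block, or transcripts one by one. Without the libraries that stand apart, combined treatment called 3, combined treatment against HIIT 3 and the semaglutide main effect 4, and semaglutide against control called Nr1d1 (-1.03, adjusted p = 0.024) in place of Wee1 (1.18, adjusted p = 0.078); with only the groups compared, combined treatment against HIIT called 2 and the liver against kidney difference for both treatments 1 (Wee1, adjusted p = 0.00525). Leaving out each library gave 0 to 1 for semaglutide, 0 to 4 for both treatments and 1 to 3 for the semaglutide main effect in liver, 0 to 1 for HIIT in kidney, and 0 to 2 and 0 to 1 for the organ differences with HIIT and with both. The share of all genes called in these settings is not given here, so a higher count is not shown to be particular to the members. The cause was not tested. The replicate number did not pair the samples (median correlation of same-numbered libraries -0.09 in liver, 0.08 in kidney), and under the block the Wee1 values were 1.27 and 1.59 with adjusted p = 0.0532 and 0.0526.

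Signs that turned were all of members that had not passed. For kidney HIIT against control, scaling turned Dbp (0.29), Tef (0.20), Nr1d1 (0.05), Nr1d2 (0.20) and Npas2 (0.05), a pseudocount of 0.1 turned Dbp (0.00), and scaling turned Nr1d1 in the HIIT main effect (0.04). Leaving out each library gave ranges across 0 for kidney Dbp (-0.36 to 0.28), Tef (-0.20 to 0.02) and Nr1d2 (-0.32 to 0.05) with HIIT, for Nr1d2 (-0.09 to 0.09) and Wee1 (-0.09 to 0.17) with semaglutide, and for Nr1d2 in the HIIT main effect (-0.03 to 0.15). Of pairs, scaling brought kidney Dbp and Tef past the threshold (r = 0.83) and turned kidney Nr1d1 and Nr1d2 (r = 0.13), and leaving out the 2 extreme libraries turned liver Nfil3 and Npas2 (0.67) and kidney Nr1d1 and Npas2 (0.11). Without read counts, what depth limits cannot be given.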
